A study of Schizosaccharomyces pombe with 9 samples.

Results

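The mRNAs of ura1, ura3 and ura4, which encode enzymes of pyrimidine synthesis, were examined in PAR-CLIP libraries of the fission yeast Schizosaccharomyces pombe. They were chosen by name, with earlier results of these data known, as 3 of the 5113 protein-coding genes annotated on the nuclear chromosomes. Every called position on the sense strand inside them was taken. Crosslinked replicate 1 had 22 of its 6560 nuclear positions in them, crosslinked replicate 2 had 23 of 4742, and the library made without crosslinking had 0 of 127. Nearly all of these positions lay in ura1. There were 19 and 22 in ura1, 3 and 1 in ura3, and none in ura4.

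In PAR-CLIP, cells take up a thiolated pyrimidine, ultraviolet light links it to bound protein, and reverse transcriptase then reads the linked base as C instead of T. A position is described here by its conversions (reads with the T-to-C change) and its reads (all reads covering it). All 3 libraries came from 1 strain in which Clr3, a histone deacetylase of the SHREC silencing complex, carries a TAP tag (clr3-3HA-TAP::kan MX). The strain is also h+, leu1-32 and ade6-M216. Its native ura4 carries the deletion allele ura4-delta18, and a ura4+ copy sits at imr1R(NcoI), in the heterochromatin of a centromere. Growth was at 30 °C with little uracil (10 mg/l) and 4% glucose. The label was 4-thiouracil, at 100 µM from the start and raised by 900 µM for the last 4 h. The crosslinked group (2 libraries) was irradiated with 12 J/cm2 at 365 nm, and the no-crosslink group was 1 library, a status given by its title and the series design alone. Whether the crosslinked replicates were separate cultures is not in the labels, and their spread may be technical. No PAR-CLIP library of untagged cells was among the samples, so contacts of Clr3 cannot be told apart from those of other RNA-binding proteins that were recovered with it. The 6 RNA-seq samples were not analysed here.

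Pyrimidine synthesis begins with carbamoyl phosphate and aspartate and ends in UMP, from which the cell makes UTP, CTP and the pyrimidines of DNA. The Ura1 protein joins carbamoyl-phosphate synthase and aspartate carbamoyltransferase in a single chain and so carries the entry steps of the pathway. Ura2 is dihydroorotase, Ura3 is the mitochondrial dihydroorotate dehydrogenase, Ura5 is orotate phosphoribosyltransferase and Ura4 is orotidine 5′-phosphate decarboxylase, which releases UMP. In budding yeast the enzyme that corresponds to Ura1 is inhibited by UTP, the end product. 4-Thiouracil enters RNA through the salvage of free uracil, beside this pathway.

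ura1 (SPAC22G7.06C) lies on chromosome I, 739167 to 746114, on the minus strand. Its mRNA of 6948 nt has no intron, a 5′ UTR of 80 nt, a coding sequence of 6735 nt (739300 to 746034) and a 3′ UTR of 133 nt, and 2326 of its bases are T. ura3 (SPAC57A10.12C) lies at I, 1385357 to 1387145, minus, with 1789 nt, no intron, a 5′ UTR of 304 nt and 634 T. ura4 (SPCC330.05C) lies at III, 115589 to 116625, minus, with 1037 nt, no intron and 317 T. Gene bounds are those of the RefSeq annotation (ASM294v3), and positions are those of the deposited tables (ASM294v2). Every called nuclear position fell on a T of the annotated genome.

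The windows below show the bases around the positions on which the description turns, namely those of ura1 with most conversions in each crosslinked library, the single position of ura1 called in both, and all positions of ura3. Each is the mRNA strand of the reference genome, written 5′ to 3′ in DNA letters, with 10 bases on each side and the converted T in capitals. The names give the gene and the position on chromosome I.
ura1 745633: tacccaagtaTttcgaatcca
ura1 744497: tacaccatttTgattaatccc
ura1 743261: atgggattaaTtcgtacatcc
ura1 741934: tggcgtctacTggtgaagttg
ura1 741697: accttgcagaTcttcctgctg
ura1 740842: ctactgctgaTgatcaggttg
ura1 740467: gtgaactgaaTttcgaacata
ura3 1387075: ttcttgtctcTaggtggataa
ura3 1386309: tttaattctaTcggccatgat
ura3 1386281: ttgctaagatTcaaaagcgcg
ura3 1386257: gcaaatacatTgctaagacat

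ura1 was among the mRNAs with most conversions in both crosslinked libraries. It held 51 conversions at 19 positions in crosslinked replicate 1, 46 conversions at 22 positions in crosslinked replicate 2, and none in the no-crosslink library. These were 0.275% of the nuclear conversions of crosslinked replicate 1 (Wilson 95% interval 0.209 to 0.361) and 0.431% of those of crosslinked replicate 2 (0.323 to 0.574), a mean of 0.353% ± 0.11 (SD, n = 2). The Wilson intervals here and below cover counting error only, since reads were not counted as separate molecules. By mean share ura1 ranked 9 of 5113 protein-coding genes, with rank 14 in crosslinked replicate 1 and rank 8 in crosslinked replicate 2. Per kilobase of mRNA its mean share was 0.0508%, which ranked 128. The rank was thus lower once mRNA length was taken into account. Conversions read RNA abundance, labelling and recovery together, and these were not separated here.

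The replicates differed for ura1 by a factor of 1.57, with the higher share in crosslinked replicate 2. The two-sided Fisher exact test of conversions gave p = 0.0341 for ura1 unadjusted and 0.876 after Benjamini-Hochberg adjustment over 3376 protein-coding genes. It compares these libraries on their reads, not conditions. None of the members passed at an adjusted p of 0.05, ura1 was the only one under 0.05 unadjusted, and 0.207% of all genes tested passed (188 genes were under 0.05 unadjusted). By reads at called positions in place of conversions the call turned: ura1 held 0.312% of reads in crosslinked replicate 1 and 0.382% in crosslinked replicate 2 (adjusted Fisher exact p = 2.44e-06). By reads 30.3% of all genes tested passed, so that call is common. A read that covers several called positions is counted at each, and reads were not counted as separate molecules. The p of the test on reads can therefore be too small.

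The no-crosslink library was small, with 885 nuclear conversions. At the mean share seen after crosslinking, ura1 would hold 3.12 conversions there and ura3 0.226. Those shares also count positions with 1 conversion, which the no-crosslink library lacked. With at least 2 conversions the mean shares were 0.472% for ura1 and 0.033% for ura3, so both numbers would be higher. Calls in that library had at least 2 conversions, and none with 2 conversions had more than 52 reads. The absence of ura1 from it is therefore not a measured lack of background. Of all protein-coding genes, 1.21% had a called position in it.

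Among mRNAs of like length ura1 stood at the top. The 63 other protein-coding genes within 20% of its mRNA length (5568 to 8183 nt) had a median of 4 conversions in crosslinked replicate 1 and 3 in crosslinked replicate 2. None exceeded ura1 in either library. The nearest, named after their values were seen, were fas1, a fatty acid synthase subunit, with 47 conversions in crosslinked replicate 1, and cut6, acetyl-CoA carboxylase, with 20 in crosslinked replicate 2. Of these 63 genes, 48 had a position in each crosslinked library (76.2%), so this is common for mRNAs of this length. Counts of genes with a position in both libraries, here and below, do not require the same position. All positions of ura1 had at least 2 conversions, whereas 51.8% of nuclear positions in crosslinked replicate 1 and 65.1% in crosslinked replicate 2 rested on 1 converted read of 3. A call of 1 in 3 rests on 3 reads, while the positions of ura1 had at least 35 and 21 reads, so they also differ in coverage. No test was made of either difference.

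Taking only positions with at least 2 conversions, 10 of the 63 genes of like length had one in both libraries.

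**Figure D1:**
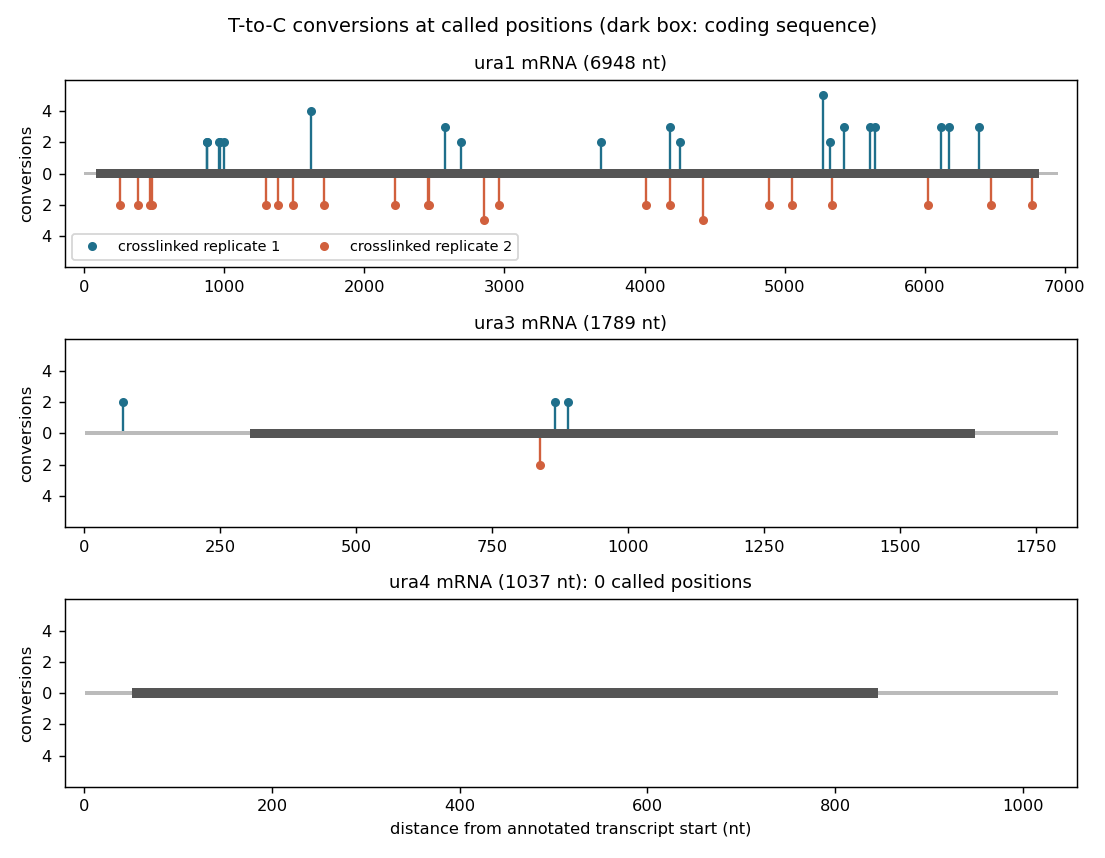
Conversions at each called position of the ura1, ura3 and ura4 mRNAs, plotted against distance from the annotated transcript start in nt, with crosslinked replicate 1 above the line and crosslinked replicate 2 below it. Dark boxes are coding sequences and thin grey lines are UTRs. The 19 and 22 positions of ura1 spread over its coding sequence with 2 to 5 conversions each, ura3 has 3 and 1, and ura4 has none.

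The positions of ura1 all fell in its coding sequence. The UTRs of ura1 hold 88 of its 2326 T and had no called position in any library, and 96.2% of its T are coding. Positions ran between 874 and 6387 nt from the transcript start in crosslinked replicate 1, and between 256 and 6769 nt in crosslinked replicate 2. In 4 stretches of equal length along the mRNA, crosslinked replicate 1 had 6, 2, 3 and 8 positions and crosslinked replicate 2 had 8, 5, 5 and 4. The stretches hold 572, 557, 587 and 610 T. The last stretch held 25 of the 51 conversions of crosslinked replicate 1 but 8 of the 46 of crosslinked replicate 2. The first stretch held 14 and 16. Neither library thus concentrated its conversions at a single point of the mRNA, and the replicates did not favour the same stretch.

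Most positions of ura1 were called in 1 replicate alone, as over the whole genome. Of the 40 distinct positions, 1 was called in both libraries, which was 5.26% of the positions of crosslinked replicate 1 and 4.55% of those of crosslinked replicate 2. Over all nuclear positions the 276 called in both were 4.21% and 5.82%. These shares include calls of 1 converted read in 3, which were 51.8% and 65.1% of nuclear positions and none of those of ura1. Of the 276, 269 had at least 2 conversions in both libraries. Among positions with at least 2 conversions the share called in both is therefore higher, and 4.21% and 5.82% are not a like background for ura1. The median distance from a position of crosslinked replicate 2 to the nearest one of crosslinked replicate 1 was 194 nt, and 2 of the 22 lay within 30 nt. Within a library some positions were neighbours: 745241 and 745237 were 4 nt apart in crosslinked replicate 1, 745155 and 745147 were 8 nt apart there, 743659 and 743653 were 6 nt apart in crosslinked replicate 2, and 745644 and 745633 were 11 nt apart there. Such neighbours can be covered by the same reads and are not independent. Crosslinked replicate 1 had calls at 0.817% of the T of ura1 and crosslinked replicate 2 at 0.946%, so most T had no call.

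The shared position was I 741934, in codon position 3 of the coding sequence, 4101 nt from the start codon. It was converted in 3 of 144 reads in crosslinked replicate 1 (2.08%, Wilson 0.711 to 5.95) and in 2 of 57 reads in crosslinked replicate 2 (3.51%, 0.968 to 11.9). The intervals overlap, and the two-sided Fisher exact test on reads gave p = 0.623 (adjusted p = 1.0 over the 276 nuclear positions called in both libraries). By this test 0% of those positions passed at an adjusted p of 0.05 and 16 were under 0.05 unadjusted, so 0 calls for ura1 is the background.

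The position of ura1 with most conversions was I 740842, 5273 nt from the transcript start. It had 5 conversions in 346 reads in crosslinked replicate 1 (1.45%, Wilson 0.619 to 3.34) and was not called in crosslinked replicate 2. Next in crosslinked replicate 1 came I 744497 with 4 conversions in 121 reads (3.31%, 1.29 to 8.19) and I 740467 with 3 in 58 (5.17%, 1.77 to 14.1). Position 740842 thus had the deepest coverage and the lowest converted share of the mRNA. In crosslinked replicate 2 the leading positions were I 743261 with 3 conversions in 21 reads (14.3%, 4.98 to 34.6), I 741697 with 3 in 34 (8.82%, 3.05 to 23.0) and I 745633 with 2 in 28 (7.14%, 1.98 to 22.6). I 740467 was 1 of 8 positions with 3 conversions in crosslinked replicate 1. I 745633 was 1 of 20 with 2 conversions in crosslinked replicate 2, and such ties were ordered by converted share. These 6 leading positions were each called in a single library, as most positions of the genome were. That background includes calls of 1 converted read in 3.

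Coverage and converted share moved against each other along ura1. Positions of ura1 had 35 to 346 reads in crosslinked replicate 1 (median 64) and 21 to 67 in crosslinked replicate 2 (median 46). The converted share was 1.45% to 5.71% (median 3.23%) in crosslinked replicate 1 and 2.99% to 14.3% (median 4.35%) in crosslinked replicate 2. Calls with exactly 2 conversions made up 9 of 19 and 20 of 22 positions, and no call in the genome with 2 conversions had more than 67 reads in crosslinked replicate 1 or 68 in crosslinked replicate 2. At a fixed number of conversions the share is set by the reads alone, so these shares do not rank the positions by contact. The authors' p of the calls ran between 3.17e-04 and 0.00454 in crosslinked replicate 1 and between 3.88e-04 and 0.00481 in crosslinked replicate 2, where the highest p of any call was 0.00499 and 0.00495.

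**Figure D2:**
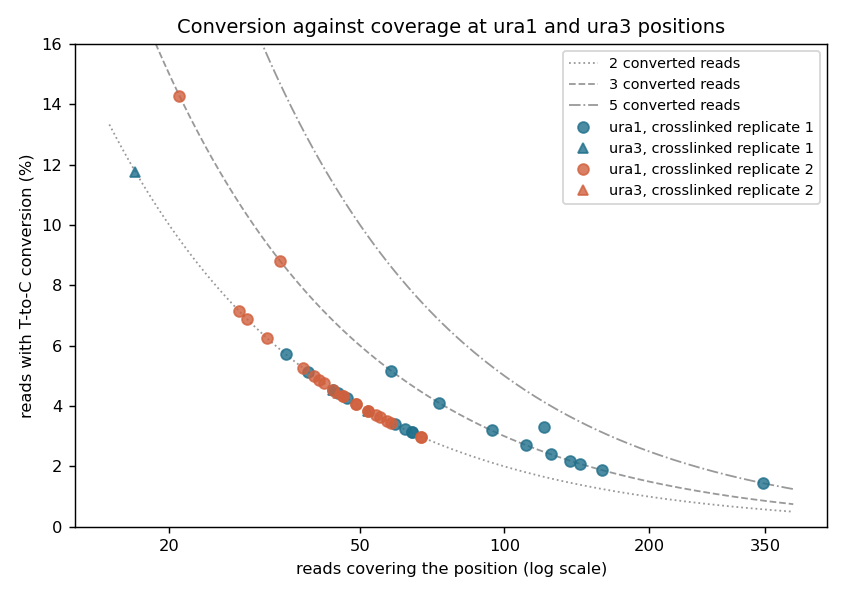
Converted share of the reads (%) against reads covering the position (log scale), for each called position of ura1 (circles) and ura3 (triangles) in the crosslinked replicates. Grey curves mark 2, 3 and 5 converted reads, and nearly all points lie on the curves for 2 and 3, so the share falls as reads increase.

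The deposited occupancy relates conversions to a reference depth. Dividing conversions by occupancy gave a whole number at every position, and the number was identical between the crosslinked libraries at 318 of the 318 positions called in both. The sources used here do not name the library behind it. Over the 40 positions of ura1 this reference depth ran between 232 and 2544 with a median of 930.5. It was 1883 to 2544 at the 4 positions within 482 nt of the transcript start, but 353 and 299 at the next positions, 874 and 878 nt from it. Near the 3′ end it reached 1892, at I 739640, and it was lowest at I 742424, so it had no steady course along the mRNA. Across the 40 positions, reference depth against distance from the transcript start gave Spearman rho = -0.17 and Pearson r = -0.26, a weak relation over positions of a single mRNA. At the shared position the reference depth was 1232.

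Conversions per 1000 of reference depth were 1.32 to 8.62 at the positions of ura1 in crosslinked replicate 1 (median 3.91) and 0.786 to 8.47 in crosslinked replicate 2 (median 1.85). The other protein-coding positions with at least 2 conversions had medians of 3.11 (quartiles 0.956 and 9.03) and 1.49 (0.381 and 5.75). The medians of ura1 thus lay inside the quartiles of the rest in both libraries. Relative to the reference, ura1 was covered by a median of 130 PAR-CLIP reads per 1000 in crosslinked replicate 1 and 44.4 in crosslinked replicate 2, against 57.5 (23.3 to 126) and 23.4 (8.95 to 66.8) at the other positions. This is just above the upper quartile in the first of these libraries and inside the quartiles in the other. Among the 47 protein-coding genes with at least 5 such positions in each crosslinked library, ura1 ranked 11 in crosslinked replicate 1 by median conversions per 1000 of reference depth (3.91, where the median gene had 1.4) and 17 in crosslinked replicate 2 (1.85, where the median gene had 1.01). The tables were not scaled for depth, so levels are not compared between libraries. No call with 2 conversions had more than 67 reads in crosslinked replicate 1 or 68 in crosslinked replicate 2. Positions of low converted share at high coverage can thus be missing in any gene.

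**Figure D3:**
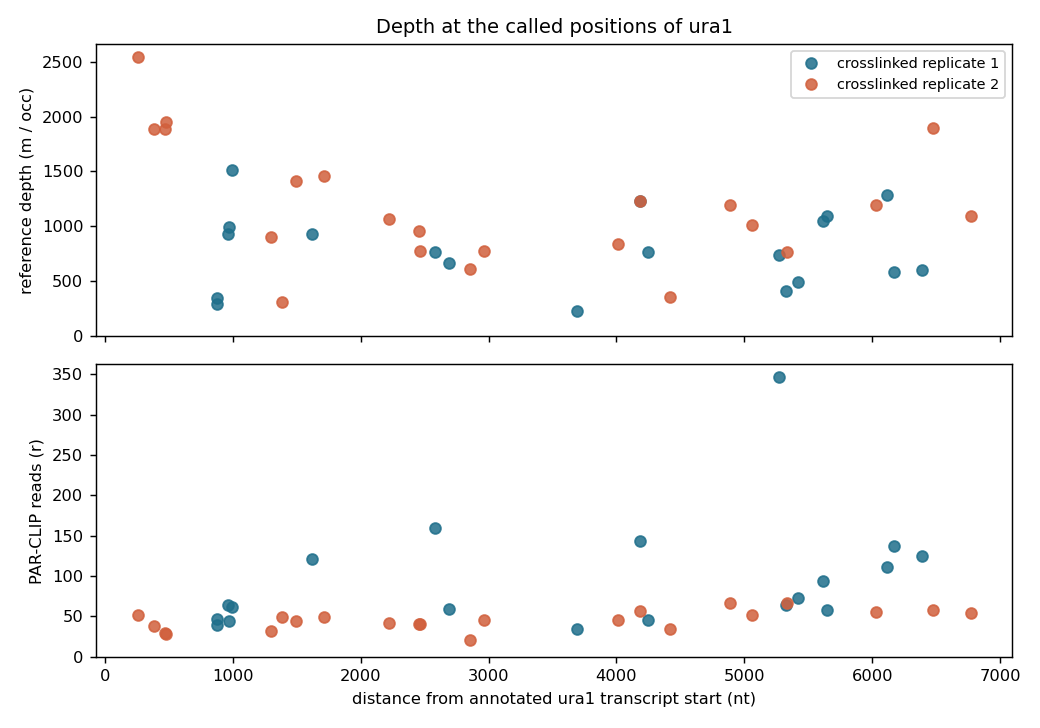
Reference depth (conversions divided by occupancy, upper plot) and PAR-CLIP reads (lower plot) at each called position of ura1 against distance from the annotated transcript start in nt, for both crosslinked replicates. Reference depth is 232 to 2544 with high and low values near both ends of the mRNA, while PAR-CLIP reads peak at 346 near 5273 nt in crosslinked replicate 1.

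ura3, the dihydroorotate dehydrogenase mRNA, had few conversions. It held 6 conversions at 3 positions with 113 reads in crosslinked replicate 1, 2 conversions at 1 position with 45 reads in crosslinked replicate 2, and none without crosslinking. Its share of conversions was 0.0324% (Wilson 0.0148 to 0.0706) in crosslinked replicate 1 and 0.0187% (0.00514 to 0.0683) in crosslinked replicate 2, a mean of 0.0256% ± 0.00963 (SD, n = 2). The two-sided Fisher exact test between the replicates gave p = 0.719 (adjusted p = 1.0 over 3376 genes). Its mean share ranked 434 of 5113 genes and 423 per kilobase, so ura3 lay much lower than ura1 by either measure.

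The 4 positions of ura3 were each called in a single library. So were most positions of the genome, a background that includes calls of 1 converted read in 3. In the coding sequence, 3 of the 4 lay within 52 nt of each other. They were I 1386309, converted in 2 of 45 reads in crosslinked replicate 2 (4.44%, Wilson 1.23 to 14.8), and I 1386281 and I 1386257, converted in 2 of 52 (3.85%, 1.06 to 13.0) and 2 of 44 reads (4.55%, 1.26 to 15.1) in crosslinked replicate 1. The remaining position, I 1387075, lay in the 5′ UTR, 71 nt from the transcript start, and was converted in 2 of 17 reads in crosslinked replicate 1 (11.8%, 3.29 to 34.3). The 3 coding positions had reference depths of 852 to 1069 and the UTR position 527. Conversions per 1000 of reference depth were 1.87 to 3.8 over the 4 positions. An annotated non-coding RNA, SPNCRNA.2608, runs antisense to much of ura3. SPNCRNA.2316 (744704 to 744929) and SPNCRNA.2317 (745927 to 746161) run antisense to short parts of ura1. No position was called on the antisense strand of any of the members in any library.

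Of the 1397 other mRNAs within 20% of the length of ura3, 104 had at least 6 conversions in crosslinked replicate 1 and 286 had at least 2 in crosslinked replicate 2. The medians of this group were 1 and 0. ura3 was thus above the middle of its length class in both libraries.

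ura4, the decarboxylase mRNA, had no called position in any of the 3 libraries. The labels give its native copy as ura4-delta18, so ura4 reads in these cells can come only from sequence kept by that allele or from the copy at imr1R. The inserted copy sits in a region silenced in wild-type cells, and its expression in these cultures was not measured here. Only called positions are listed, so 0 sets no upper limit on reads or contacts. Of 863 other mRNAs within 20% of its length (831 to 1244 nt), 413 (47.9%) likewise had no position in either crosslinked library. A lack of calls is thus frequent at this length. The nearest called positions on chromosome III were 458 nt from the lower end of the gene in crosslinked replicate 1, in SPNCRNA.6707, and 1650 nt from its upper end in crosslinked replicate 2, in pmp20, each of 1 conversion in 3 reads.

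A called position in each crosslinked library, not necessarily the same one, was thus found in 2 of the 3 members. Of all protein-coding genes 29.9% had this. With at least 2 conversions at such positions the count was again 2 of 3, where the share over all genes was 8.06%. ura3 had no single position called in both libraries. With 3 genes, these counts describe the members and are not a test.

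**Figure D4:**
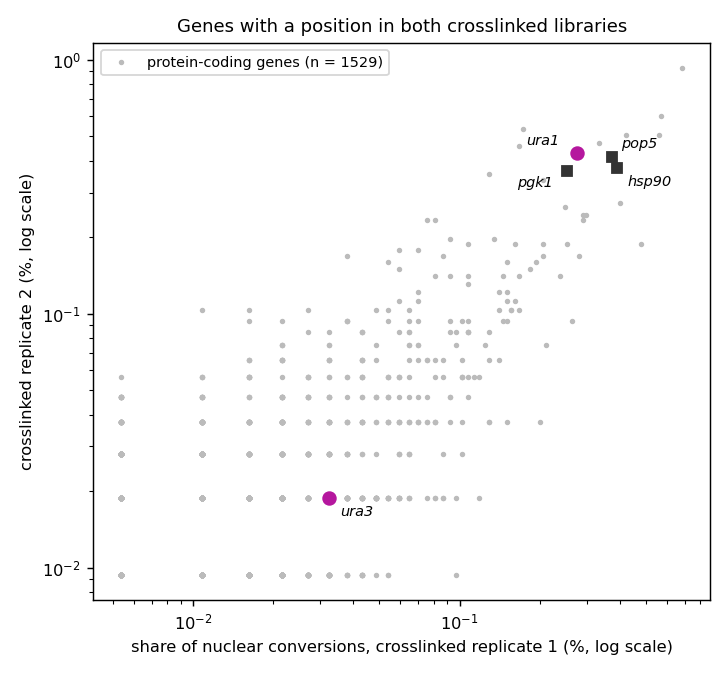
Share of nuclear conversions (%) in crosslinked replicate 2 against crosslinked replicate 1, both on log scales. Drawn are the 1529 protein-coding genes with a called position in each, not necessarily the same one. ura1 lies near the top of the cloud at 0.275% and 0.431%, close to pgk1, pop5 and hsp90, and ura3 lies in the body of it. ura4 has no called position and is not drawn.

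The genes most like ura1 in their shares were pgk1, pop5 and hsp90. Likeness was the distance between log2 shares of conversions over the 2 crosslinked libraries, among 456 other protein-coding genes with at least 2 positions in each of these and none in the no-crosslink library. pgk1, phosphoglycerate kinase of glycolysis, held 0.254% and 0.365% of conversions at a distance of 0.27. pop5, a protein subunit of RNase P and RNase MRP, held 0.372% and 0.412% at 0.44, and the chaperone gene hsp90 held 0.388% and 0.375% at 0.54. Their mRNAs of 1641, 1927 and 2582 nt are far shorter than that of ura1, and pgk1 reached its 47 and 39 conversions with 9 and 11 positions, pop5 its 69 and 44 with 5 and 6, and hsp90 its 72 and 40 with 20 and 15. In its number of positions, 19 and 22, ura1 was thus nearer to hsp90 than to pgk1 or pop5.

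Counting positions with any number of conversions, the other genes of pyrimidine metabolism were near the background of all protein-coding genes. Of 17 listed gene names, 15 were matched to the annotation. A position in each crosslinked library, not necessarily the same one, was found in 6 of the 15 (ura1, ura3, ura5, ura6, cts1 and suc22). Of all protein-coding genes 29.9% had this. None of the 15 had a position in the no-crosslink library. Without ura1 the other 14 genes held 36 conversions in crosslinked replicate 1 and 14 in crosslinked replicate 2, fewer than ura1 alone, with medians of 0.5 and 0.5 per gene. Their means were 2.57 and 1.0 conversions per gene. Over all protein-coding genes the medians were 1 and 0 and the means 1.99 and 1.2. ura1 thus held 51 of 87 and 46 of 60 conversions of the list. Without it, 5 of 14 genes had a position in each crosslinked library. With at least 2 conversions at such positions, 3 of the 14 did (ura3, cts1 and suc22), where the share over all genes was 8.06%. The 5 genes of later steps had medians of 6 and 1 conversions in crosslinked replicates 1 and 2, and the 5 of salvage and transport had 0 and 0. With so few genes, these counts are not a test.

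In the synthesis of UMP itself, ura2 had no position in either crosslinked library, like ura4, and ura5 had 1 conversion in each. Among the steps after UMP, cts1, CTP synthase, came next to ura1 with 10 conversions at 5 positions in crosslinked replicate 1 and 5 at 3 positions in crosslinked replicate 2. ura6, the UMP kinase gene, had 2 and 1 conversions. Of the ribonucleotide reductase genes, cdc22, the large subunit, had 10 conversions in crosslinked replicate 1 and none in crosslinked replicate 2, and suc22, the small subunit, had 6 and 2. ndk1, nucleoside diphosphate kinase, had 1 and 0. For cdc22 the two-sided Fisher exact test between the replicates gave p = 0.0171 unadjusted and 0.716 after adjustment over 3376 genes, so the difference did not pass.

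Among genes of salvage and uptake, fur4, the uracil permease gene, had 0 conversions in crosslinked replicate 1 and 2 in crosslinked replicate 2, and urg2, a uracil-regulated gene, had 0 and 1. The uridine kinase gene urk1 and the uracil-regulated genes urg1 and urg3 had none in any library. None of these 5 genes had a position in both crosslinked libraries, where 29.9% of all protein-coding genes had one, and 5 genes are too few to set them apart.

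**Figure D5:**
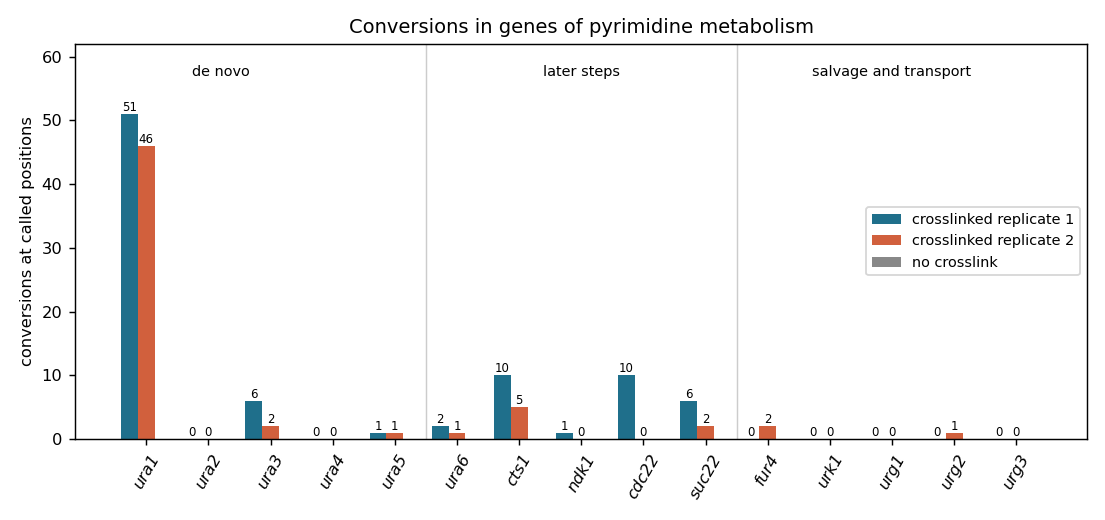
Conversions at called positions in 15 genes of pyrimidine metabolism in crosslinked replicate 1, crosslinked replicate 2 and the no-crosslink library, grouped by step, with values above the bars. ura1 has 51 and 46 conversions, no other gene exceeds 10, and the no-crosslink library has 0 in each gene.

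The bases next to the called positions of ura1 and ura3 were counted without a test, and those given here were picked after the counts were seen. The base before the converted T was A at 18 of 44 distinct positions (40.9%), T at 18 others (40.9%) and G at 2 (4.55%). Of the 2947 T of both mRNAs that lie at least 10 nt from an end, 25.2%, 35.3% and 18.6% have these bases before them. The base after it was G at 16 of 44 (36.4%) and T at 12 (27.3%), where these bases follow 24.2% and 35.3% of all T. RNase T1, which trimmed the RNA, cuts after G, and its part in these frequencies was not tested. Over the 10 bases on each side the positions held 33.3% T, close to the 33.9% around all T, so no U-rich stretch marked them. In the windows above, a G follows the converted T at ura1 744497, 741934 and 740842 and at ura3 1386257. Of the 40 positions in ura1, 6, 13 and 21 were in codon positions 1, 2 and 3 (15%, 32.5% and 52.5%), and 21.5%, 30.1% and 48.4% of its coding T are there. The order is the same as that of the T themselves.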

How the data were processed

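Each PAR-CLIP library is 1 deposited table with a line per called position. Its deposited counts are conversions and covering reads (single-letter columns, read from the values: conversions never exceed reads), the deposited p-value is that of the call per the file headers, and the deposited occupancy is a ratio of conversions to a whole number, taken as a reference depth. Reads were processed with Bowtie 1.1.1 and SAMtools on build ASM294v2, per the submitters' processing notes. How positions were called and how multiply matching reads were handled is not stated in these sources, and total library depth is unknown.

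Positions on nuclear chromosomes were assigned to annotated genes by strand, with Python 3.11.15, pandas 2.3.3 and SciPy 1.17.1. Groups came from the sample titles. The nuclear tables held 18539, 10672 and 885 conversions in 586303, 262083 and 15100 reads (crosslinked replicates 1 and 2, no crosslink). With 2 libraries against 1, no exact permutation test across conditions can pass a threshold of 0.05, and none was made. Replicates were compared by two-sided Fisher exact tests with Benjamini-Hochberg adjustment over all positions or genes, tested on simulated data. Named were all members, every gene of a pathway list, each member's 3 positions with most conversions per library (ties by converted share), positions called in both crosslinked libraries, and the 3 genes nearest by share. Members and lists were chosen with earlier results of these data known. Alternatives were minimum conversions, reads or positions, the denominator, the coding sequence alone, and single replicates.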

Additional observations from a re-analysis of the deposited data

How the results depend on the processing

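The share of ura1, 0.353% over all positions, was 0.472% with positions of at least 2 conversions, 0.518% with at least 20 reads and 0.628% of conversions in protein-coding mRNAs. On the last denominator ura3 held 0.0459%. ura4 stayed at 0 under each of these. Protein-coding genes with a position in each crosslinked library, not necessarily the same one, numbered 1529. They were 412 with at least 2 conversions, 300 with at least 20 reads and 493 with at least 2 positions in each. With a single replicate they were 2227 to 2678. Pathway genes with a position in both numbered 6, and 3 with at least 20 reads and 2 with at least 2 positions in each. By reads at called positions in place of conversions, 1 member, ura1, differed between the replicates (adjusted Fisher exact p = 2.44e-06, and 0.177 to 0.909 under the other alternatives), as did 30.3% of all genes tested. Such sums depend on which positions were called and can count the same read at several positions, and the cause was not tested. The other alternatives left the results within their spread or count limits. No paired analysis was possible because the crosslinked and no-crosslink groups share fewer than 2 replicate numbers. All but 2 of the called positions of the members rest on 2 or 3 conversions, which limits their precision.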
